A study of Mus musculus with 6 samples.

Results

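Tac2 and Sh3tc2 are 2 genes with no usual place in an account of the spleen whose signals were strongly higher in garlic-fed mice, and they were chosen for that reason. The members are the probe sets that the array annotation ties to Tac2 or to Sh3tc2 alone, which gave 1 probe set for each gene, so 2 genes of 18193 and 2 probe sets of 45037 in all. The garlic-fed group was 3 male C57BL/6J mice, which started at 8 weeks of age and ate a casein, sucrose, cornstarch and soybean oil diet with 4% lyophilized raw garlic powder for 15 weeks. The control group was 3 mice of the same sex, strain and starting age on the same base diet with 4% cellulose. The spleen of each mouse was read on 1 Affymetrix array, on which short oligonucleotides, pooled as a probe set, report an mRNA as a signal in arbitrary linear units. Markers of the spleen were bright on all 6 arrays, with the B cell gene Ms4a1 at 12654.6 to 13615.6 in garlic-fed mice and 12414.5 to 14111.9 in control mice.

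Tac2 encodes the precursor of neurokinin B, a peptide of the tachykinin family that is known best from neurons of the hypothalamus that govern reproductive hormones. In humans the gene is called TAC3. Neurokinin B is cut out of the precursor and acts on the receptor encoded by Tacr3. Sh3tc2 encodes an adaptor protein with SH3 domains and tetratricopeptide repeats that binds the small GTPase Rab11 on recycling endosomes. Schwann cells need it to form myelin, and loss of SH3TC2 in humans causes a demyelinating neuropathy. Neither gene is a usual marker of red cells, granulocytes or stroma.

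The stretch before the start of Tac2 is shown because GATA factors drive many of the erythroid genes that are compared with Tac2 further on. It is the 250 bases before the gene's start on the plus strand in RefSeq, build GRCm38.p6, chr10:127724228-127724477, with the motif GATA, on either strand, in capitals (it reads TATC here, on the minus strand).
Tac2: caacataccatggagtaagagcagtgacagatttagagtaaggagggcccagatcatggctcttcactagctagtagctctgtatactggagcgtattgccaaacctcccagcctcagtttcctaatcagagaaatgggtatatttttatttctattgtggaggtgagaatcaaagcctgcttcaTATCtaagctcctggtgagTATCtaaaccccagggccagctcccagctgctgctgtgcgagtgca
On either strand the motif GATA occurred 2 times, both on the minus strand, beginning 65 and 46 bases before the start. At least 1 such match lay in 53.6% of the 32851 RefSeq promoters of the same length, and 2 or more lay in 24.2%. The motif CANNTG, which reads the same on both strands, occurred 1 time, 22 bases before the start, and 66.2% of promoters hold it. CACCC, searched on both strands, was not in this window, and 52% of promoters hold it. No 2 of these matches overlapped. They are matches of letters, and these arrays do not measure what binds there. Sh3tc2 lies on another chromosome, and its promoter is not shown here.

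The signal of Tac2 was 257.2, 245.8 and 313.6 in garlic-fed mice 1, 2 and 3, against 76.1, 111.3 and 87.1 in control mice 1, 2 and 3. The groups did not overlap, and the lowest garlic-fed signal was 2.21 times the highest control signal. The mean was 272 ± 36.3 in garlic-fed mice and 91.5 ± 18.0 in control mice (SD, n = 3 each), a log2 difference of 1.58 or 3.00-fold. On the log2 scale the SD was 0.19 among garlic-fed mice and 0.28 among control mice. Among the 12262 genes with a signal bright enough to be compared, this difference was the 6th largest rise. Dusp8 (1.68) stood just before Tac2 in that order and Mageb16 (1.56) just after it.

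The signal of Sh3tc2 was 294.1, 336.6 and 373.7 in garlic-fed mice 1, 2 and 3, against 143.4, 98.8 and 147.8 in control mice 1, 2 and 3. Here too the groups were apart, and the lowest garlic-fed signal was 1.99 times the highest control signal. The mean was 335 ± 39.8 in garlic-fed mice and 130.0 ± 27.1 in control mice (SD, n = 3 each), a log2 difference of 1.38 or 2.60-fold, the 15th largest rise. The SD on the log2 scale was 0.17 among garlic-fed mice and 0.32 among control mice. Groups with all garlic-fed signals above all control signals were found in 9.13% of the genes. Since both genes were chosen on this contrast, their differences are given as a description with no test.

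**Figure D1:**
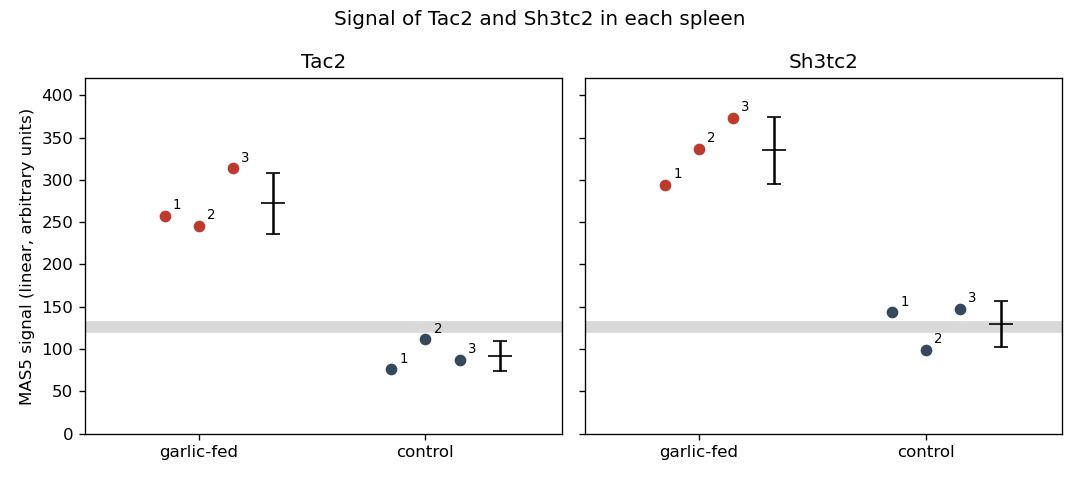
MAS5 signal (linear, arbitrary units) of Tac2 and Sh3tc2 in each garlic-fed and control spleen, with the mouse number beside each point, the mean ± SD as bars, and the range of the arrays' median signals as a gray band. For Tac2 the garlic-fed points lie between 245.8 and 313.6 and the control points between 76.1 and 111.3, and for Sh3tc2 between 294.1 and 373.7 and between 98.8 and 147.8.

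Both genes were dim. The median signal of all probe sets on an array was 119.7 to 132.2, and Tac2 lay under it in all 3 control mice. In garlic-fed mice 61.7% to 65.8% of the probe sets had a lower signal than Tac2, and in control mice 40.2% to 47.6%. For Sh3tc2 these shares were 64.0% to 68.7% in garlic-fed mice and 45.6% to 52.1% in control mice. Only 15.7% of the genes compared were dimmer than Tac2 in mean log2 signal and 21.1% were dimmer than Sh3tc2. The files used here hold no call of present or absent, so a low control signal is not shown to be above background. The annotation ties the Tac2 probe set to a RefSeq mRNA and the Sh3tc2 probe set to a single expressed sequence tag, and whether that probe set reads the Sh3tc2 mRNA alone was not tested. Spleen RNA is a mixture, so more cells of a type and more of an mRNA per cell cannot be told apart.

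Within a diet the genes did not move together on all arrays. In the control group, mouse 2 had the highest Tac2 signal and the lowest Sh3tc2 signal. In the garlic-fed group, mouse 3 had the highest signal of both genes, while the lowest signal was that of mouse 2 for Tac2 and of mouse 1 for Sh3tc2. Over the 6 arrays Pearson's r between the log2 signals of Tac2 and Sh3tc2 was 0.90, which holds the diet difference for which both were chosen. With each diet's mean taken off, r between the deviations was -0.48. Control mouse 2 decided this value, since without it the r of deviations was 0.69 and the r over the arrays left was 0.99. These and all r below are descriptions of 6 arrays with no test. The arrays share the diet contrast, their scaling and their tissue makeup.

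**Figure D2:**
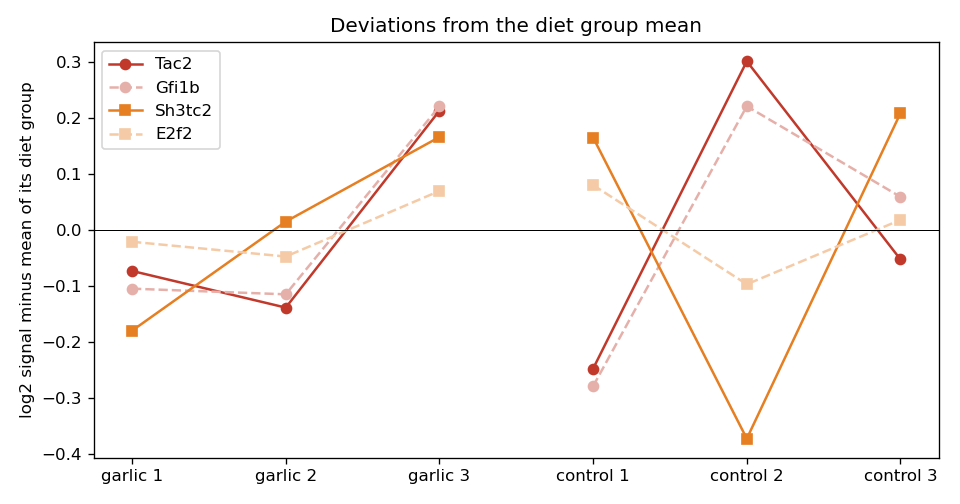
Log2 signal minus the mean of its diet group in each garlic-fed and control mouse for Tac2, Sh3tc2, Gfi1b and E2f2, with lines that only join the symbols of a gene, as the mice have no order. Control mouse 2 has the highest deviation of Tac2 (0.30) and the lowest of Sh3tc2 (-0.37), and garlic-fed mouse 3 has the highest of both in its group (0.21 and 0.17).

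Which known genes follow Tac2 and Sh3tc2 was asked by taking a gene as following where its r was at least 0.9. Of the 12260 other genes compared, 334 (2.72%) followed Tac2, 209 (1.7%) followed Sh3tc2 and 109 (0.889%) followed both. The count for both was 191 without garlic-fed mouse 1, 188 without control mouse 1, 443 without control mouse 2 and 169 without control mouse 3, where r rests on 5 arrays. By Spearman's rho it was 0, but that was fixed by the members themselves. Their ranks over the 6 arrays differ too much (rho = 0.77) for a gene without ties to reach 0.9 with both. The count following Tac2 was 627 without garlic-fed mouse 1, 608 without garlic-fed mouse 3 and 578 without control mouse 3. The count following Sh3tc2 was 349 without garlic-fed mouse 1, 416 without garlic-fed mouse 3, 371 without control mouse 1 and 517 without control mouse 2. All 109 genes had garlic-fed signals above all control signals, beside 9.13% of all genes. A high r with 2 members chosen on this contrast favors such genes, so that count is no separate result. Of the 109 genes, 19 were members of the lists described next, 15 of the erythroid lists and 4 of the cell division list.

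The 10 genes whose lower r was highest were Ankrd9, Ift140, Tyms, Lancl2, Sox6, Tial1, Ccna2, Uros, Mki67 and Gypc. Sox6 encodes a transcription factor of erythroid cells, with signals of 1089.9, 1073.8 and 1435.9 in garlic-fed mice 1 to 3, against 418.4, 433.4 and 573.0 in control mice 1 to 3. Its r was 0.95 with Tac2 and 0.96 with Sh3tc2. Uros encodes an enzyme of heme synthesis, with signals of 1949.8, 1941.3 and 2630.9 in garlic-fed mice, against 754.7, 855.8 and 960.2 in control mice. In both genes garlic-fed mice 1 and 2 were alike and mouse 3 stood higher. Gypc encodes glycophorin C of the red cell membrane, Ccna2 encodes cyclin A2, Mki67 encodes the proliferation marker Ki-67, and Tyms encodes thymidylate synthase, which makes a DNA precursor. Ift140 encodes a protein of transport within cilia and Tial1 encodes an RNA-binding protein. Not all of the 10 differed much between the diets, with a log2 difference of 0.20 for Lancl2 and 0.24 for Tial1, against 1.34 for Sox6 and 1.28 for Ankrd9.

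The genes closest to Tac2 alone were Rfx2, Mboat2 and Gfi1b, each with r = 0.99. Gfi1b encodes a transcription factor that erythroid and megakaryocyte cells need, with signals of 827.4, 821.6 and 1036.7 in garlic-fed mice, against 362.7, 512.8 and 458.4 in control mice. Like Tac2, it was highest in mouse 3 of the garlic-fed group and in mouse 2 of the control group. Its r of deviations within diets was 0.95 with Tac2 and -0.27 with Sh3tc2. Mboat2, which encodes an acyltransferase of membrane phospholipids, had r of deviations of 0.96 and -0.27.

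The genes closest to Sh3tc2 alone were Gpx1, Clcn3 and Gtpbp2, each with r = 0.99. Gpx1 encodes glutathione peroxidase 1, with signals of 23362.2, 24262.6 and 24120.8 in garlic-fed mice, against 20854.3, 19297.7 and 21175.0 in control mice. Clcn3 encodes a chloride and proton exchanger of endosomes, with signals of 3869.0, 3887.2 and 3975.8 in garlic-fed mice, against 2963.5, 2708.5 and 3120.4 in control mice. All 3 genes were lowest in control mouse 2, as Sh3tc2 was, and their log2 differences of 0.23 for Gpx1, 0.42 for Clcn3 and 0.41 for Gtpbp2 were far smaller than that of Sh3tc2.

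**Figure D3:**
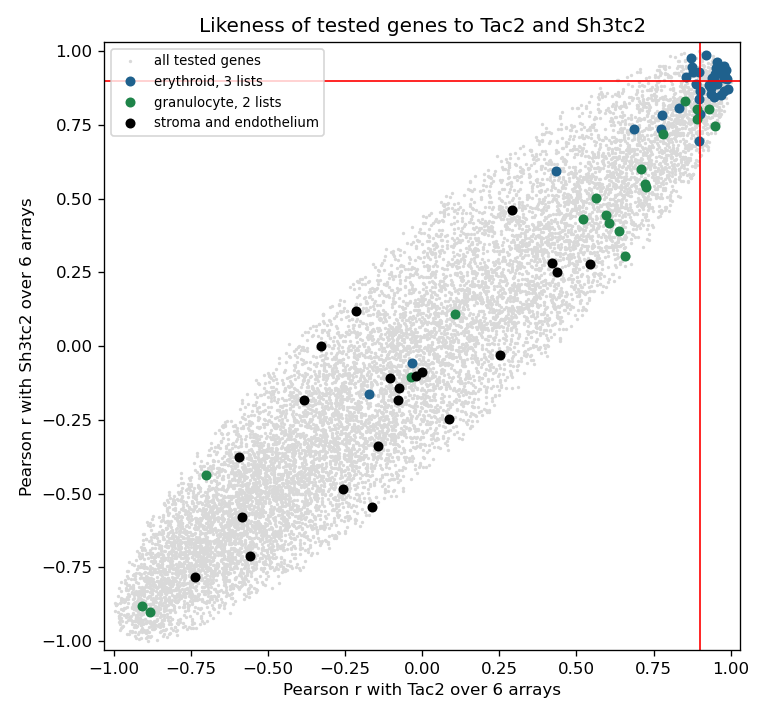
Pearson r with Tac2 (x axis) and with Sh3tc2 (y axis) over 6 arrays for each gene compared, with the erythroid, granulocyte and stromal list members in color and red lines at 0.9. Erythroid genes gather in the upper right corner, where 15 of 41 follow both, beside 0.889% of all genes. No granulocyte or stromal gene lies there.

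Erythroid genes followed both members most often among the 3 kinds asked about. Of 41 genes of the red cell membrane, heme synthesis and erythroid transcription factor lists, 26 (63.4%) followed Tac2, 20 (48.8%) followed Sh3tc2 and 15 (36.6%) followed both. Of all genes, 2.72% followed Tac2, 1.7% followed Sh3tc2 and 0.889% followed both. In 36 of the 41 erythroid genes all garlic-fed signals were above all control signals, beside 9.13% of all genes. Since r holds the diet difference for which both members were chosen, following is not separate from that rise. In 30 of the 41, r was larger with Tac2 than with Sh3tc2. That more of them followed Tac2 did not hold throughout, with 25 following Tac2 and 33 Sh3tc2 without control mouse 1, 28 and 30 without control mouse 2, and 12 and 21 by Spearman's rho. Without garlic-fed mouse 3 the counts were 23 and 13. The count for both was 8 without garlic-fed mouse 3, 25 without control mouse 1, 28 without control mouse 2 and 9 with probe sets of a gene averaged. It was 0 by Spearman's rho, which the members' own ranks fixed, as said above. Of the 41 genes, 18 rose at an adjusted p under 0.05 from limma, none fell and 23 did not pass, beside a rise in 0.343% and a fall in 0.00816% of all genes tested (0.226% and 0.0111% of probe sets). Their median log2 difference was 0.99, against -0.03 over all genes tested. This count of 18 was 0 with no filter on dim probe sets, with no trend of variance and with the methods' test, 0 without control mouse 1, 0 without control mouse 2, 10 without garlic-fed mouse 2, 10 without garlic-fed mouse 3 and 11 without control mouse 3.

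In the red cell membrane and surface list, Gypc, Tspan33 and Kel had the highest lower r. Kel, the gene of the Kell blood group antigen, had signals of 2270.0, 2817.0 and 3856.8 in garlic-fed mice, against 904.7, 1155.8 and 1283.2 in control mice, with r of 0.96 with Tac2 and 0.93 with Sh3tc2. Tspan33, which encodes a tetraspanin of erythroid precursors, had a log2 rise of 0.93 ± 0.13 (standard error) with adjusted p = 0.0240 from limma and had r of 0.95 and 0.94. Tspan33 was named for its r with members chosen on the same contrast, so this p adds no separate evidence. The summed signal of the 20 genes was 70929 to 101783 in garlic-fed mice and 37338 to 51212 in control mice, highest in mouse 3 of each group. In control mouse 3 the Tac2 signal, 87.1, was below that of control mouse 2, while the Sh3tc2 signal, 147.8, was the highest of the control mice.

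Of the heme and mitochondrial iron genes, Uros, Abcb10 and Slc25a38 had the highest lower r. Abcb10, which encodes a transporter of the inner mitochondrial membrane, had a log2 rise of 1.06 ± 0.11 (standard error) with adjusted p = 0.0123 from limma. That p too adds no separate evidence, as Abcb10 was named for its r with members chosen on the same contrast. Slc25a37, the gene of the mitochondrial iron importer mitoferrin 1, picked once its value was known, followed Sh3tc2 (r = 0.98) but not Tac2 (r = 0.87). Alas2, the enzyme that starts heme synthesis in erythroid cells, was also picked once its value was known. It followed neither member, with r of 0.43 with Tac2 and 0.59 with Sh3tc2. Its log2 difference of 0.20 ± 0.15 (standard error) did not pass (adjusted p = 0.683 from limma).

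Of the erythroid transcription factors, Sox6 and E2f2 followed both members. E2f2, an E2F factor of late erythroblasts, had signals of 2062.8, 2025.5 and 2196.6 in garlic-fed mice, against 1564.5, 1383.9 and 1498.6 in control mice. It was lowest in control mouse 2, its r of deviations was 0.85 with Sh3tc2 and -0.37 with Tac2, and its log2 difference of 0.50 ± 0.10 (standard error) did not pass (adjusted p = 0.0760 from limma). Klf1, a regulator of red cell genes, had r of 0.90 with Tac2 and 0.79 with Sh3tc2, and Gata1 had r of 0.85 and 0.91, both picked once their values were known.

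**Figure D4:**
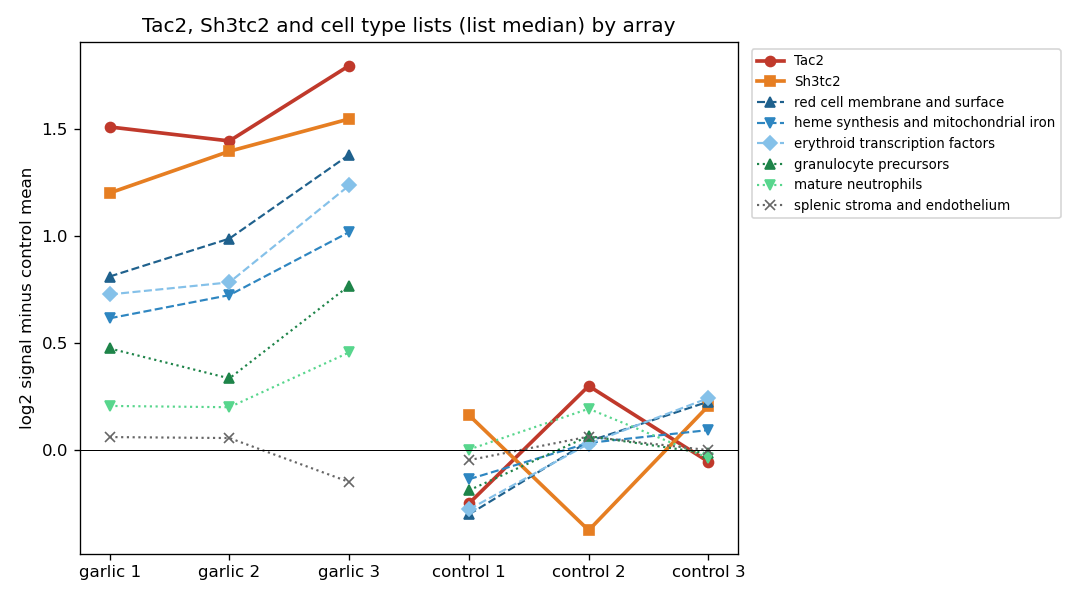
Log2 signal minus the control mean on each array for Tac2, Sh3tc2 and the median of each erythroid, granulocyte and stromal list, with lines that only join symbols of a row. In garlic-fed mice Tac2 (1.44 to 1.80) and Sh3tc2 (1.20 to 1.55) lie above the medians of the erythroid lists (0.62 to 1.38), and the stromal median stays between -0.15 and 0.06.

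Granulocyte genes followed Tac2 in 2 cases and Sh3tc2 in none, beside 2.72% and 1.7% of all genes. Of 20 genes of granulocyte precursors and mature neutrophils, Elane (r = 0.95) and Camp (r = 0.93) followed Tac2. Both were picked once their values were known. Elane, which encodes neutrophil elastase, had signals of 360.9, 411.0 and 415.4 in garlic-fed mice, against 175.6, 288.3 and 178.2 in control mice. Its r with Sh3tc2 was 0.75, since its highest control signal was in mouse 2. None of the 20 genes passed the adjusted test, beside a rise in 0.343% and a fall in 0.00816% of all genes. By limma's unadjusted p under 0.05 there were 5 higher and 1 lower, beside 6.89% and 6.24% of all genes. Mgst1 and Serpinb1a, the brightest genes of the precursor list, had r with Tac2 of 0.71 and -0.91, and S100a8 and S100a9, the brightest of the neutrophil list, had r of 0.61 and 0.52. Mpo and Prtn3 of the precursor list, picked once their values were known, came closer. Mpo had r of 0.85 with Tac2 and 0.83 with Sh3tc2, and Prtn3 had 0.89 and 0.81. Their log2 differences were 0.94 and 1.07. Without control mouse 2, 4 of the 20 genes followed Sh3tc2, and 2 did so without control mouse 1 and 1 without garlic-fed mouse 2. The count with Tac2 was 1 without garlic-fed mouse 3 and 4 without garlic-fed mouse 1 or control mouse 3.

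No stromal or endothelial gene followed either member, beside 2.72% of all genes for Tac2 and 1.7% for Sh3tc2. At such shares a list this short may well hold none. Of 21 such genes compared, the median r was -0.11 with Tac2 and -0.14 with Sh3tc2, and none passed the adjusted test or an unadjusted p under 0.05 in either direction from limma. Of all genes, 0.343% rose and 0.00816% fell by the adjusted p, and 6.89% and 6.24% by the unadjusted p. The median log2 difference of the 21 genes was -0.02. Cxcl13 and Cxcl12, chemokines of follicular and reticular stroma, had signals of 8225.3 to 10041.6 and 7527.3 to 8530.3 in garlic-fed mice, against 8580.5 to 11245.1 and 7764.9 to 9429.3 in control mice. Without garlic-fed mouse 3, 2 stromal genes followed at least 1 of the members. The 13 red pulp macrophage genes and the 9 megakaryocyte genes compared held no follower either. Among them r was highest for Axl (0.86 with Tac2), picked once its value was known. The 9 lymphocyte genes compared all had lower mean log2 signals in garlic-fed mice, with a median r of -0.85 with Tac2 and -0.66 with Sh3tc2, and none of these passed the adjusted test.

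Dividing cell genes followed both members in 4 of 14 cases, namely Tyms, Ccna2, Mki67 and Rrm2, beside 0.889% of all genes. Ccna2 had signals of 3224.9, 3966.5 and 3996.0 in garlic-fed mice, against 2146.8, 2157.1 and 2204.2 in control mice, with r of 0.95 with Tac2 and 0.96 with Sh3tc2. Of the 14 genes, 3 rose at an adjusted p under 0.05 from limma and none fell, beside 0.343% and 0.00816% of all genes. Ccne1, the cyclin E1 gene, picked once its value was known, followed Tac2 (r = 0.99) and had r of 0.90 with Sh3tc2, just under the limit.

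**Figure D5:**
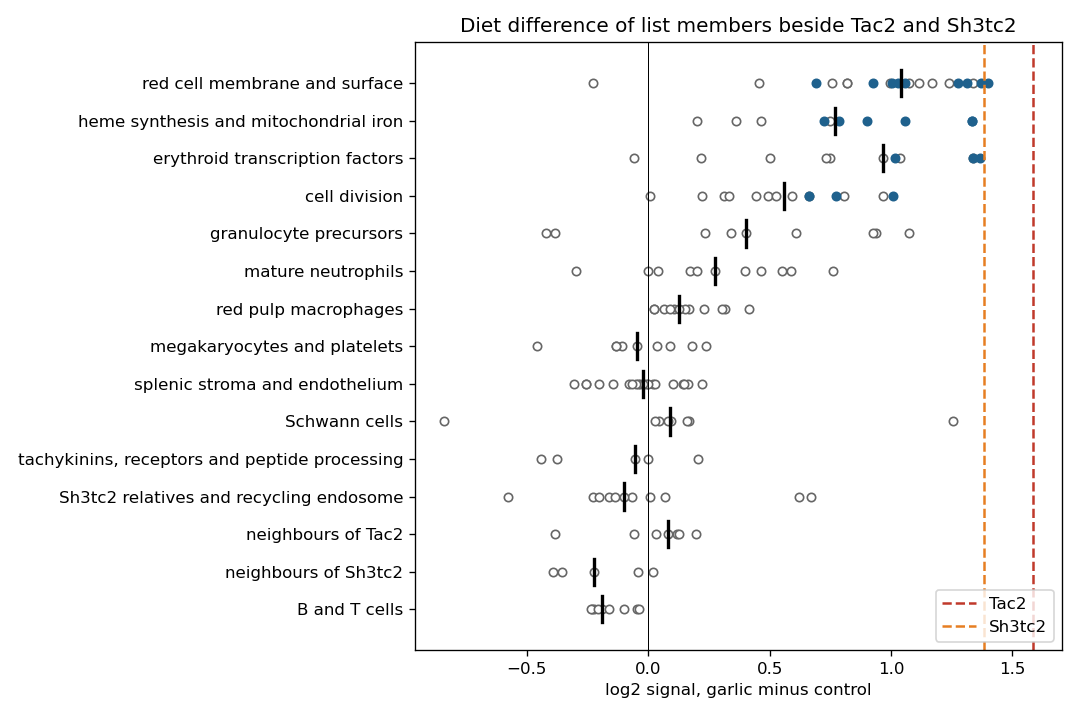
Log2 signal difference, garlic minus control, of each list member compared, with filled points at an adjusted p under 0.05 from limma, black bars at list medians, and dashed lines at Tac2 (1.58) and Sh3tc2 (1.38). The points of the erythroid lists reach up to 1.40 (Kel), close to the Sh3tc2 line, while all tachykinin pathway, recycling endosome and neighboring genes lie at 0.67 or less.

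The erythroid lists also followed Tac2 within diets more than Sh3tc2, but other lists did as well. The median r of deviations over the 41 erythroid genes was 0.59 with Tac2 and 0.31 with Sh3tc2, against 0.01 and -0.07 over all genes compared. For mature neutrophil genes it was 0.65 with Tac2 and -0.11 with Sh3tc2, and for red pulp macrophage genes 0.71 and -0.36. The control mouse with the highest Tac2 signal, mouse 2, also had the highest median of the neutrophil list (0.19) and the macrophage list (0.12) among control mice, in log2 relative to the control mean.

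Pancreatic and fat tissue genes differed between the arrays. Pancreatic genes gave 0.00646%, 0.107% and 0.00726% of the signal in garlic-fed mice 1 to 3, against 0.419%, 0.0561% and 0.198% in control mice 1 to 3. The median r of the 12 pancreatic genes compared was -0.81 with Tac2 and -0.61 with Sh3tc2. Without garlic-fed mouse 2 and control mouse 1, the arrays with the most pancreatic signal in their groups, the log2 difference was 1.53 for Tac2 and 1.46 for Sh3tc2. The part of pancreatic or fat tissue in the differences of Tac2 and Sh3tc2 was not tested. The fat tissue genes compared were high in garlic-fed mice 1 and 2 and not in mouse 3, whereas Tac2 and Sh3tc2 were highest in garlic-fed mouse 3.

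The tachykinin system itself was dim. The tachykinin genes Tac1 and Tac4 and the receptor genes Tacr1, Tacr2 and Tacr3 were all too dim to be compared. Tacr3, the receptor of neurokinin B, had signals of 9.4, 46.3 and 43.8 in garlic-fed mice, against 72.0, 76.5 and 6.9 in control mice, and Tac1, which encodes substance P, had 46.4, 26.0 and 55.2 against 28.8, 29.6 and 21.9. Tac4, which encodes hemokinin 1, lay between 27.0 and 43.9 in garlic-fed mice and between 48.8 and 81.5 in control mice. At signals this near to or under the limit of comparison, their differences were not read. Of the 5 genes of peptide processing and breakdown that could be compared, none passed the test, beside 0.343% higher and 0.00816% lower among all genes. Cpe, which encodes a carboxypeptidase that trims peptide precursors, had a log2 difference of 0.21 ± 0.16 (standard error) with adjusted p = 0.703 from limma. For Ece1, the brightest of the 5, it was -0.38 ± 0.25 with adjusted p = 0.637 from limma. Mme, the gene of neprilysin, a peptidase that breaks tachykinins down, was picked once its value was known. Its log2 difference was -0.44 ± 0.16 with adjusted p = 0.318 from limma.

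No partner of Sh3tc2 that was compared followed it, beside 1.7% of all genes. At such a share a list this short may well hold none. Sh3tc1, the closest relative of Sh3tc2, was too dim to be compared, with signals of 79.6, 82.5 and 10.0 in garlic-fed mice, against 45.5, 35.2 and 41.8 in control mice. Of 11 genes of the Rab11 recycling endosome and of integrin and neuregulin receptor partners that were compared, none passed the test. Beside this, 0.343% of all genes rose and 0.00816% fell. The r of the 11 genes with Sh3tc2 lay between -0.91 for Rab11fip2 and 0.67 for Rab11fip3. Rab11a had signals of 2613.9, 2438.4 and 2492.1 in garlic-fed mice, against 2551.0, 3077.9 and 2689.2 in control mice. Of 8 Schwann cell genes compared, none passed and 1, Gfap, followed Sh3tc2 (r = 0.95). Gfap, a filament protein of glia, was dim, with signals of 128.4, 115.4 and 184.5 in garlic-fed mice, against 74.8, 36.1 and 74.4 in control mice. The myelin gene Mbp had r of -0.04 with Sh3tc2 and a log2 difference of 0.03. Of the Schwann cell list, Cdh19 and S100b were too dim to be compared, with signals of at most 60.9.

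The genes beside Tac2 and Sh3tc2 did not share their rise. Of the 5 protein-coding genes on each side of Tac2 in the reference, 7 were compared, with r between -0.55 (Rdh9) and 0.51 (Nemp1) and log2 differences between -0.39 and 0.20, though the Rdh9 probe set may also read other Rdh genes of that cluster. Of those around Sh3tc2, 5 were compared, with r with Sh3tc2 between -0.63 (Ablim3) and 0.05 (Fbxo38) and log2 differences between -0.39 and 0.02. None of these 12 genes passed the adjusted test, and in none did the groups separate. Among all genes, 0.343% rose and 0.00816% fell by that test. Groups separated with garlic-fed mice above in 9.13% of all genes and with them below in 10.7%. Stat6 near Tac2 had signals of 2392.8, 2732.6 and 2127.7 in garlic-fed mice, against 2345.9, 2166.4 and 2147.8 in control mice.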

How the data were processed

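Spleen RNA of 3 garlic-fed and 3 control mice was measured on 1 Affymetrix array each. The deposited values are intensities on a linear scale that the authors computed with MAS5, with no MAS5 version given in the sources used here. The 64 control probe sets were left out. Of 45037 probe sets, 34945 carried 1 gene name in the annotation, and 34741 of these were matched to GRCm38.p6 genes by identifier. A floor of 23.5, the 20th percentile of all signals, was set before log2. Probe sets whose mean log2 signal did not exceed 6.08, the 40th percentile, were dropped, which left 27022 probe sets and 12262 genes, each read from its brightest probe set. Genes called too dim are those left out. The test of garlic-fed against control mice was limma 3.58.1 (R 4.3.3, lmFit and eBayes with trend), with Benjamini-Hochberg adjustment over all 27022 probe sets. Where an r is given it is Pearson's over log2 signals. Promoters were searched in Python 3.11.15, and figures were drawn with matplotlib 3.10.9. The limma test and the limit of r were tried on simulated data with noise drawn separately for each probe set. Such data hold no shared tissue makeup, so they do not show how firm the counts of followers are. The number of arrays limits the precision.

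Named are the genes closest to both members (10) and to each alone (3 each), up to 3 followers of each list or else its brightest genes, the tachykinins, their receptors, Sh3tc1 and the neighboring genes, with exceptions stated. The members and lists were chosen with earlier results of these data known. Of the list members, neighbors apart, 184 were compared, 32 were too dim and 22 had no probe set named for them alone. Alternatives were quantile normalization, median centring, other floors and filters, no trend, the methods' test, the replicate number as a block, arrays left out, Spearman's rho and averaged probe sets per gene. No column of another series was used.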

Additional observations from a re-analysis of the deposited data

How the results depend on the processing

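The log2 differences of Tac2 (1.46 to 1.73 without single arrays) and Sh3tc2 (1.20 to 1.49) moved by less than the spread between mice with either normalization and with arrays left out. The floors and the absence of a filter could not change them. The r between Tac2 and Sh3tc2 was 0.85 to 0.99 without single arrays and 0.77 as Spearman's rho, and the r of deviations was -0.90 to 0.69 without single arrays. Probe sets past the adjusted threshold, 61 higher and 3 lower, numbered 0 to 103 and 0 to 33 without single arrays, 147 higher with median centring, 6 lower with a floor at the 40th percentile, 4 and 7 with no filter, and 8 and 28 without control mouse 1 and garlic-fed mouse 2. With no trend and with the methods' test none passed, with 1338 and 1201 higher and 1474 and 1347 lower at an unadjusted p under 0.05. Without control mouse 1 none passed either, with 1089 higher and 842 lower unadjusted. Without control mouse 2 these were 1259 and 1013. The 18 erythroid genes that rose numbered 0 to 20 without single arrays, 0 with no filter, no trend or the methods' test, and 3 without control mouse 1 and garlic-fed mouse 2. The 109 genes that followed both numbered 132 to 443 without single arrays, 182 with median centring and 321 without those 2 arrays. The 15 erythroid ones numbered 8 to 28 without single arrays, 26 without those 2 and 9 with the mean of probe sets. Both counts were 0 by Spearman's rho, which cannot show how firm they are. The members' ranks differ too much for a gene without ties to reach 0.9 with both. With a filter at the 60th percentile both members were left out, so no gene could be set beside them. Apart from the 0 by rho and the members left out by that filter, the cause of these changes was not tested. With the replicate number as a block, 270 probe sets were higher and 25 lower, and 34 erythroid and 3 granulocyte genes rose, but same-numbered mice did not deviate together (r of 0.000642, -0.176 and 0.0781), and of the garlic-fed mice only mouse 3 correlated best with its own number.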

Other observations

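Of the 40 other genes that rose at an adjusted p under 0.05 from limma, 39 followed Tac2 and 28 followed Sh3tc2. These counts share the arrays and the diet contrast on which Tac2 and Sh3tc2 were chosen. Kiss1r, the receptor of kisspeptin and a partner of neurokinin B in the hypothalamus, was near the limit of comparison, with signals of 64.8, 105.3 and 131.8 in garlic-fed mice, against 66.1, 68.1 and 44.5 in control mice. Its log2 difference of 0.72 had a standard error of 0.36 and did not pass (adjusted p = 0.498 from limma). Oprk1, the other such partner gene compared, went the other way, with signals of 70.8, 63.5 and 52.0 against 100.6, 72.3 and 85.5. Its log2 difference of -0.47 ± 0.30 (standard error) did not pass either (adjusted p = 0.632 from limma). All its garlic-fed signals were below all control signals, as in 10.7% of all genes.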
